A study of Homo sapiens with 12 samples.

Results

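The genes described here are 10 innate pattern recognition receptors, chosen by symbol among the 58278 genes listed in each library: CLEC4E, TLR1, TLR2, TLR3, TLR4, TLR6, NOD1, NOD2, DDX58 and IFIH1. The choice was made with earlier results of these data known. Their mRNA was measured by RNA sequencing in HK2, an established human line derived from the proximal tubule of the kidney. The 12 libraries form 6 groups of 2. Ctrl cells received no treatment. TN cells received tumour necrosis factor alpha (TNF-α, 5 ng/mL, 3 h). In the PRTN and BUTN groups, a short-chain fatty acid (SCFA) was given for 24 h and TNF-α followed, with 15 mM propionate in PRTN and 3 mM butyrate in BUTN. In the TNPR and TNBU groups the same doses of propionate and butyrate, respectively, were applied for 24 h once the TNF-α stimulation had taken place. No group of resting cells with an SCFA alone, and no group left for 24 h after TNF-α with neither SCFA, was analysed here. A change in an SCFA group therefore cannot be told apart from an SCFA effect on resting cells, and in TNPR and TNBU it cannot be told apart from the added time. All libraries come from 1 cell line, and nothing in the labels says whether the 2 libraries of a group were separate cultures. The study calls them biological replicates without defining the term. The p-values therefore measure only the spread between these libraries.

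Pattern recognition receptors bind molecules that are common to microbes or released from damaged cells. Toll-like receptors do so at the cell surface or in endosomes, NOD proteins and RNA helicases in the cytosol, and C-type lectins such as CLEC4E at the surface of the cell. Most pass the signal on to NF-κB and interferon regulatory factors. In the kidney, tubular epithelial cells carry several of these receptors, and TLR2, TLR4 and CLEC4E are among those studied in renal injury.

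CLEC4E was the most abundant of the 10 mRNAs per kilobase in untreated cells, it was the only receptor called higher with TNF-α alone, and it was 30.4-fold to 58.8-fold lower in the 4 SCFA groups than in TN. TLR2 and TLR3 were also called lower in all 4 SCFA groups than in TN. TLR6 and NOD1 lay below TN in all 4 and passed the fold threshold in all but BUTN. The RNA helicases DDX58 and IFIH1 were called lower in TNPR and TNBU, and their PRTN and BUTN values lay below TN without being called. No receptor was called between SCFA after and SCFA before TNF-α. TLR1 was called higher in PRTN and BUTN. TLR4 and NOD2 had at most 6 and 3 counts in any library.

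Expression is given as CPM, read counts relative to the sum over all tested genes, scaled by TMM, a factor per library that equalises the bulk of genes. A gene was called when the fold change exceeded 1.5 and the adjusted p from limma-voom, fitted on all 12 libraries and adjusted over 24342 tested genes, was under 0.05. All 10 receptors entered the fit. TLR4 and NOD2, with at most 1 count in any Ctrl or TN library, did so only through the SCFA libraries, and their calls are not read as changes. The receptor counts below are therefore over the other 8, called the counted receptors. Library totals ran from 27269986 to 33851130 expected counts, so that 3 counts, the limit that a count of 0 allows, corresponded to 0.0867 to 0.112 CPM (counting error only). The 2 libraries of TNPR and of TNBU differed more from each other than those of the other groups, with a median absolute log2 difference of 0.202 and 0.232 against 0.116 to 0.153. TNFAIP3, an NF-κB target used to check the stimulus, rose from 110 CPM in Ctrl to 489 CPM in TN (log2 fold change 2.15, SE 0.06, adjusted p = 1.25e-09), and NFKBIA rose from 190 to 313 CPM (0.72, SE 0.11, adjusted p = 0.00374).

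The 17 markers of tubular epithelium summed to 3510 to 4820 CPM in every library, but the proximal tubule genes LRP2 and SLC34A1 reached at most 31 and 3 counts. Against TN, 9, 9, 8 and 9 of the 17 were called higher and 6 lower in each SCFA group. These are 47.1 to 52.9% higher and 35.3% lower, against 23.1% to 25.0% and 14.8% to 16.9% of all tested genes. LRP2 had 0 counts in Ctrl and TN and entered the fit only through the SCFA libraries. As group means, PAX8 fell from 403 CPM in TN to between 131 and 158 CPM in the SCFA groups and HAVCR1 from 198 to between 45.9 and 62.6 CPM. KRT19 rose from 4.53 to between 82.4 and 119.5 CPM and CDH1, the epithelial cadherin, from 0.109 to between 9.94 and 14.1 CPM, with all 4 genes called in all 4 groups. Because many of these receptors are best known from myeloid cells, 18 macrophage markers were counted beside them. Their summed level was 35.4 to 41.0 CPM in the Ctrl and TN libraries and 43.5 to 73.0 CPM in the SCFA libraries. CD68, a lysosomal protein of many cell types, made up most of it. The defining macrophage genes PTPRC, SPI1 and C1QA had at most 5, 8 and 1 counts in any library, and CSF1R had 4 to 42 counts. Of the 12 macrophage markers tested, 10, 9, 6 and 7 were called higher than TN in PRTN, BUTN, TNPR and TNBU (50% to 83.3% of them, against 23.1% to 25.0% of all tested genes). Some of the 12, among them TYROBP, AIF1 and MRC1, had 0 counts in Ctrl and TN. They entered the fit only through the SCFA libraries, so that a higher call was built into their being tested. Endothelial markers (0.143 to 0.287 CPM in Ctrl and TN, 2.29 to 3.87 CPM in the SCFA groups) and lymphocyte markers (0.0687 to 0.144 and 3.53 to 5.41 CPM) were low and also higher with SCFAs. Their part in the receptor results was not tested.

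The sequences before the start of the receptor genes were read from RefSeq (GRCh38.p14), which matched 9 of the 10 genes and had no entry for TLR1. Starts are those of RefSeq. The GENCODE v44 gene bodies used for positions below begin at other bases for 5 genes, so that 210 (TLR2), 245 (TLR3), 228 (TLR4), 250 (NOD2) and 12 (DDX58) of the 250 bases lie inside the gene as GENCODE places it. In the 250 bases before the RefSeq start, both strands were searched for 5 motifs: the NF-κB consensus, the interferon-stimulated response element GAAANNGAA, the AP-1 site TGANTCA, the TATA box TATAAA and the GC box GGGCGG. The NF-κB consensus was found before DDX58 and IFIH1, 2 of 9 receptors, against 5.21% of 35116 promoters of the same length. The interferon element was found before IFIH1 alone, against 6.88% of promoters, and the GC box before 6 of 9, against 42.6%. Neither the AP-1 site (6.57% of promoters) nor the TATA box (10.7%) occurred in any of the 9 windows. A match is a description and not a bound site, and the absence of one says only that these letters are not in this window.

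Of the 9, 4 are printed, each 5′ to 3′ along the gene's strand and ending at the base before the start, with the matches in capitals. CLEC4E is shown because it moved most, TLR2 because it is rich in G and C, and DDX58 and IFIH1 because they hold the NF-κB matches.
CLEC4E, chr12:8540906-8541155, minus strand: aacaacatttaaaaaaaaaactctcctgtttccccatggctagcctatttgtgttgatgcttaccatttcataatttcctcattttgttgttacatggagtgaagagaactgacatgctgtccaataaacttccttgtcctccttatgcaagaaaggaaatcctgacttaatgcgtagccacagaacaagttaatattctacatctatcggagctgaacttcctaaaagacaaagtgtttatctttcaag
TLR2, chr4:153684030-153684279, plus strand: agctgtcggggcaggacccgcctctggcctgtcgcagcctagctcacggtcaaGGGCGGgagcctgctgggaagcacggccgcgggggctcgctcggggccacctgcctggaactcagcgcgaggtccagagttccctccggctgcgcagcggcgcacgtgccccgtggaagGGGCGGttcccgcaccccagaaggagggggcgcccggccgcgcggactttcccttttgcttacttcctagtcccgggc
DDX58, chr9:32526197-32526446, minus strand: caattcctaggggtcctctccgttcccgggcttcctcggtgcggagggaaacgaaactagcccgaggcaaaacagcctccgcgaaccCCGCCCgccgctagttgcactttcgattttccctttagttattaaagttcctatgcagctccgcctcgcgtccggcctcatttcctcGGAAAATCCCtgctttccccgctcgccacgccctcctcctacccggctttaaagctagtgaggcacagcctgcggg
IFIH1, chr2:162318685-162318934, minus strand: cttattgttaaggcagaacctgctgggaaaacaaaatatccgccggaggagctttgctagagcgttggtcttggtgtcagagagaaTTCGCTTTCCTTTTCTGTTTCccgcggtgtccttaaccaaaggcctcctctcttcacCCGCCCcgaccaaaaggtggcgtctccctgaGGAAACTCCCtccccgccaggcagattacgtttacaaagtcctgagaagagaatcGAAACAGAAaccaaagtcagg
The window of CLEC4E held no match and was 36.4% G and C. That of TLR2 was 72.4% G and C and held GC boxes at 197 to 192 and 78 to 73 bases before the RefSeq start, both inside the GENCODE gene body. In DDX58 and IFIH1 the NF-κB match lay at the same distance, 76 to 67 bases before the start, on the minus strand of each gene. IFIH1 held 4 matches to the interferon element, 3 of them overlapping between 164 and 144 bases before the start and 1 at 21 to 13 bases. The windows of TLR3, TLR4 and NOD1 held GC boxes only, and those of TLR6 and NOD2 held no match.

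**Figure D1:**
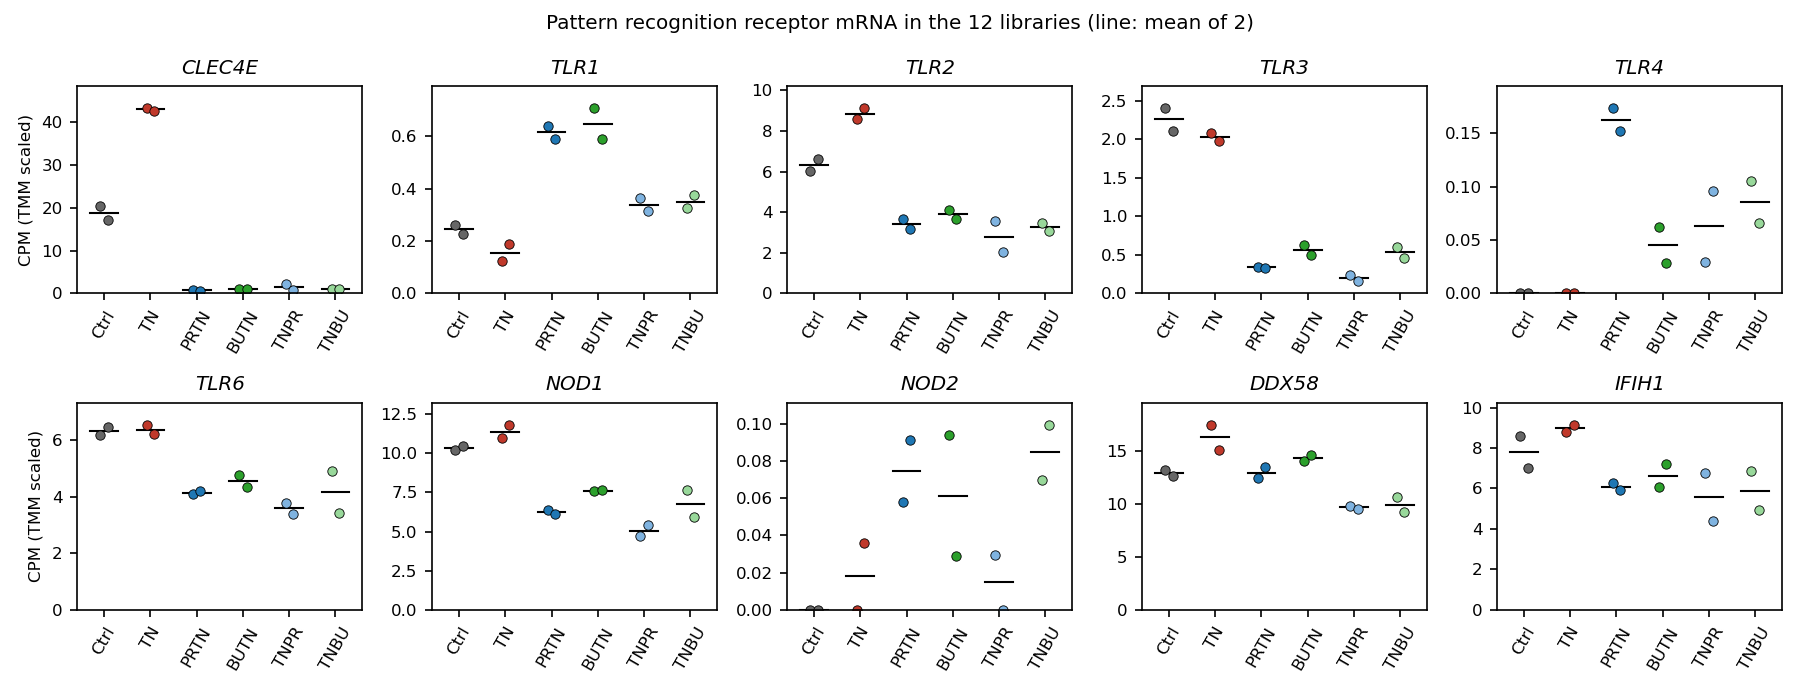
CPM of each receptor (vertical axes, each starting at 0 and with its own scale) in the 12 libraries by group (horizontal axes); points are libraries and lines are means of 2. CLEC4E stands at 42.8 and 43.3 CPM in TN and at or under 2.28 CPM in all 8 SCFA libraries, while TLR1 is higher in each SCFA library than in each Ctrl or TN library.

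The first question was how TNF-α alone changed the receptors. Against Ctrl, 1 of the 8 counted receptors was called higher in TN and 0 lower, where 0.764% of all tested genes were called higher and 0.534% lower. At an unadjusted p under 0.05 with a fold over 1.5, and with edgeR or DESeq2, the count was again 1 higher and 0 lower. Over the 8 the median log2 fold change was 0.17, against -0.01 for all tested genes. When the SCFA groups were set against TN, 1 counted receptor was called higher and 5 lower in PRTN (23.9% and 16.7% of all tested genes), 1 higher and 3 lower in BUTN (23.1% and 14.8%), 0 higher and 7 lower in TNPR (24.9% and 16.9%), and 0 higher and 7 lower in TNBU (25.0% and 16.5%). The higher calls were TLR1 in PRTN and BUTN. The median log2 fold change of the 8 counted receptors was -0.74, -0.53, -1.0 and -0.74 in PRTN, BUTN, TNPR and TNBU, beside 0.09, 0.08, 0.12 and 0.09 for all tested genes. These 4 comparisons share the TN libraries and are not independent of each other. In TNPR and TNBU no counted receptor was called higher with edgeR or DESeq2 either, and 1 in each, TLR1, passed an unadjusted p under 0.05 with a fold over 1.5. Scaling by library size alone shifted the calls of all genes towards higher ones, from 5620 higher and 3613 lower to 6579 and 2656 in BUTN, from 6067 and 4117 to 7232 and 3132 in TNPR and from 6094 and 4027 to 7329 and 2849 in TNBU, and in TN against Ctrl from 186 and 130 to 144 and 181. Under it 1 counted receptor was called higher (TLR1) and 5 lower in TNPR, and 1 higher (TLR1) and 3 lower in TNBU.

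Against untreated cells, 1 counted receptor was called higher and 5 lower in PRTN (22.6% and 16.9% of all tested genes), 1 higher and 3 lower in BUTN (22.0% and 14.9%), 0 higher and 5 lower in TNPR (23.6% and 16.8%), and 0 higher and 5 lower in TNBU (23.6% and 16.5%). At an unadjusted p under 0.05 with a fold over 1.5, and with edgeR or DESeq2, TNPR and TNBU again had 0 counted receptors higher. These comparisons share the Ctrl libraries. CLEC4E, TLR2 and TLR3 were called lower than Ctrl in all 4 groups, and TLR6 and NOD1 in PRTN, TNPR and TNBU. In TNBU the calls of TLR6 and NOD1 were lost with library size alone (log2 fold changes -0.49 and -0.48), without TNBU replicate 2 (-0.37 and -0.44) and with DESeq2 (-0.58 for each). In PRTN the call of TLR6 was lost with library size alone (-0.51) and without Ctrl replicate 2 (-0.58). The higher calls were TLR1 in PRTN and BUTN.

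**Figure D2:**
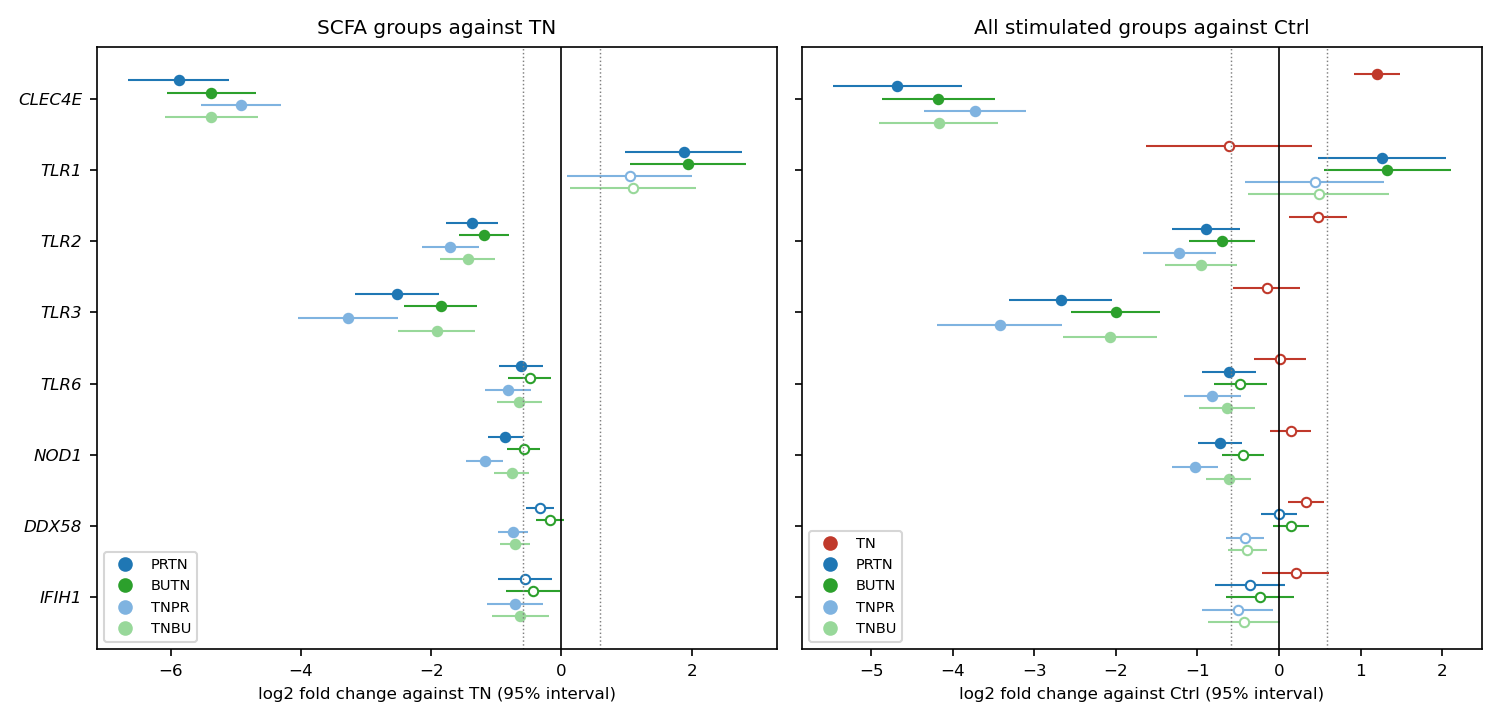
Fitted log2 fold changes of the 8 counted receptors against TN (left) and against Ctrl (right), with 95% intervals; filled points were called, open points were not, and dotted lines mark a 1.5-fold change. CLEC4E lies farthest to the left in every SCFA group, and TLR1 is the only receptor to the right of 0 in all 4 SCFA groups.

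CLEC4E (Mincle; ENSG00000166523, minus strand, 12:8533305-8540905, GENCODE v44 on GRCh38) is a C-type lectin that binds mycobacterial glycolipids and a nuclear protein of dead cells. It was at 20.4 and 17.2 CPM in the Ctrl libraries and at 43.3 and 42.8 CPM in the TN libraries. It stood at 0.840 and 0.608 CPM in PRTN, 1.03 and 1.01 CPM in BUTN, 2.28 and 0.832 CPM in TNPR, and 1.05 and 0.996 CPM in TNBU. Both TN libraries were above both Ctrl libraries, and all 8 SCFA libraries were below every Ctrl library. TNF-α raised CLEC4E 2.29-fold (log2 fold change 1.20, SE 0.13, adjusted p = 0.000348). Against TN it was 58.8-fold lower in PRTN (log2 fold change -5.88, SE 0.36, adjusted p = 3.84e-08), 41.5-fold lower in BUTN (-5.38, SE 0.31, adjusted p = 3.7e-08), 30.4-fold lower in TNPR (-4.92, SE 0.28, adjusted p = 2.26e-08) and 41.4-fold lower in TNBU (-5.37, SE 0.33, adjusted p = 4.52e-08). It was also 25.6-fold, 18.1-fold, 13.2-fold and 18.1-fold lower than in Ctrl, respectively. The value for TNPR depended on a single library, since the log2 fold change against TN was -5.71 without TNPR replicate 1 and -4.23 without TNPR replicate 2. The counts behind the SCFA values were 20 to 77 per library, against 479 to 1191 in Ctrl and TN. The 3 genes whose log2 CPM followed CLEC4E most closely over the 12 libraries, among 13053 genes of at least 1 CPM, were CHCHD4 (Pearson r = 0.99), CTSS (0.99) and DNPEP (0.99), a description over libraries that share their groups.

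TLR2 forms surface heterodimers with TLR1 or TLR6 that bind bacterial lipopeptides. TLR2 (ENSG00000137462, plus strand, 4:153684070-153706260) was at 6.04 and 6.63 CPM in Ctrl and at 8.56 and 9.12 CPM in TN. It was at 3.64 and 3.16 CPM in PRTN, 4.13 and 3.67 CPM in BUTN, 3.55 and 2.02 CPM in TNPR and 3.47 and 3.05 CPM in TNBU. All SCFA libraries were below all Ctrl and TN libraries. With TNF-α alone the log2 fold change was 0.48 (SE 0.16, adjusted p = 0.144), which was not called. Against TN the log2 fold changes were -1.38 (PRTN), -1.18 (BUTN), -1.71 (TNPR) and -1.44 (TNBU), with adjusted p between 1.04e-05 and 0.000106. Against Ctrl the values were -0.89, -0.70, -1.22 and -0.96, all called, although the call in BUTN was lost without BUTN replicate 2 (adjusted p = 0.059). Without either TNPR library in turn, the log2 fold change of TNPR against TN ran from -2.17 to -1.31. VAV2 (r = 0.98), ZC3H12A (0.98) and CCAT1 (0.98) were most like it.

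TLR6 (ENSG00000174130, minus strand, 4:38822897-38856817) was at 6.19 and 6.48 CPM in Ctrl, 6.54 and 6.20 CPM in TN, 4.11 and 4.19 CPM in PRTN, 4.77 and 4.35 CPM in BUTN, 3.78 and 3.40 CPM in TNPR and 4.89 and 3.41 CPM in TNBU. TNF-α alone left it at a log2 fold change of 0.01 (95% interval -0.31 to 0.33). All SCFA libraries were below the Ctrl and TN libraries. Against TN it was 1.54-fold lower in PRTN (adjusted p = 0.00419), 1.77-fold lower in TNPR (adjusted p = 0.000737) and 1.56-fold lower in TNBU (adjusted p = 0.00398), and in BUTN the log2 value of -0.48 (adjusted p = 0.016) stayed under the 1.5-fold threshold. The call in TNBU was lost without TNBU replicate 2 (log2 fold change -0.38, adjusted p = 0.0555). Scaling by library size alone, which moved the median of all genes in these comparisons up by more than 0.1 on the log2 scale, removed the calls in PRTN and TNBU. KIAA0232 (r = 0.99), YTHDF3 (0.99) and XIAP (0.99), a partner of RIPK2 in NOD signalling, were most like it.

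TLR1 (ENSG00000174125, minus strand, 4:38790677-38856817) was scarcer, at 0.262 and 0.228 CPM in Ctrl and 0.122 and 0.190 CPM in TN. It was at 0.641 and 0.589 CPM in PRTN, 0.708 and 0.588 CPM in BUTN, 0.365 and 0.314 CPM in TNPR and 0.327 and 0.374 CPM in TNBU. Each SCFA library was above each Ctrl and TN library, and PRTN and BUTN were above TNPR and TNBU. Against TN it rose 3.67-fold in PRTN (log2 fold change 1.88, SE 0.41, adjusted p = 0.00176) and 3.84-fold in BUTN (1.94, SE 0.41, adjusted p = 0.00143). These folds rest on 3.28 and 5.29 expected counts in the TN libraries, near the limit of 3 counts. The values of 1.05 in TNPR (adjusted p = 0.0582) and 1.10 in TNBU (adjusted p = 0.0506) did not pass. Both were called with library size alone (adjusted p = 0.0307 and 0.0248) and with edgeR's filterByExpr filter (0.0496 and 0.0428). With RLE size factors only TNBU was called (0.0487). Against Ctrl it was called in PRTN (log2 fold change 1.26, adjusted p = 0.00972) and BUTN (1.33, adjusted p = 0.00741). Both calls were lost without Ctrl replicate 2, at log2 fold changes of 1.17 and 1.24. They were also lost with DESeq2, at 1.33 and 1.43 (adjusted p = 0.146 and 0.116). TLR1 and TLR6 lie on the same strand and overlap over 33921 bases of gene body. Of the 50-base words of the exons of TLR1, 5.33% also occur in those of TLR6, so that reads there could be assigned to either gene. ABCA2 (r = 0.97), TCN2 (0.97) and COL18A1 (0.96) were most like TLR1.

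TLR3 and TLR4 signal through TRIF, and TLR4 also through MYD88. TLR3 (ENSG00000164342, plus strand, 4:186068911-186088073), the endosomal receptor for double-stranded RNA, was at 2.40 and 2.11 CPM in Ctrl and 2.09 and 1.97 CPM in TN. It was at 0.347 and 0.335 CPM in PRTN, 0.626 and 0.491 CPM in BUTN, 0.237 and 0.160 CPM in TNPR and 0.596 and 0.465 CPM in TNBU. Ctrl and TN overlapped, with a log2 fold change of -0.15 (95% interval -0.57 to 0.26), and all SCFA libraries were lower. The 4 propionate libraries were below the 4 butyrate libraries, a description at unequal doses that was not tested. Against TN it was 5.75-fold lower in PRTN (log2 fold change -2.52, SE 0.29, adjusted p = 1.08e-05), 3.61-fold lower in BUTN (-1.85, SE 0.26, adjusted p = 5.46e-05), 9.67-fold lower in TNPR (-3.27, SE 0.35, adjusted p = 5.3e-06) and 3.78-fold lower in TNBU (-1.92, SE 0.27, adjusted p = 5.5e-05). Against Ctrl it was 6.39-fold, 4.01-fold, 10.8-fold and 4.20-fold lower, all called. PROSER2, MISP and ARMCX5 were most like it (r = 0.98 for each).

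TLR4 (ENSG00000136869, plus strand, 9:117704175-117724735), the lipopolysaccharide receptor, had 0 counts in all 4 Ctrl and TN libraries, which allows up to 0.103 to 0.112 CPM. The PRTN libraries held 6 and 5 counts and the BUTN libraries 2 and 1, and with the SCFA given last there were 1 and 3 counts (TNPR) and 3 and 2 counts (TNBU). Only PRTN stood above 3 counts per library. TLR4 entered the fit only through the SCFA libraries, so no fold change is given. The TNPR and TNBU means lay under 3 counts, and a change in those groups was not measurable at this depth. LY96, the co-receptor without which TLR4 does not bind lipopolysaccharide, was at 0.101 to 0.149 CPM in the 6 group means and was named after its values were seen. NOD2 (ENSG00000167207, plus strand, 16:50693588-50733077), the sensor of muramyl dipeptide, had 0 counts in both Ctrl libraries and 0 and 1 counts with TNF-α alone. The PRTN libraries held 2 and 3 counts, the BUTN libraries 3 and 1, the TNPR libraries 1 and 0 and the TNBU libraries 2 and 3. No library exceeded 3 counts, and no fold change is given. A change in NOD2 was not measurable at this depth.

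NOD1 (ENSG00000106100, minus strand, 7:30424527-30478784) binds peptidoglycan fragments and signals through RIPK2. It was at 10.2 and 10.4 CPM in Ctrl, 11.0 and 11.8 CPM in TN, 6.40 and 6.13 CPM in PRTN, 7.57 and 7.68 CPM in BUTN, 4.72 and 5.41 CPM in TNPR and 7.63 and 5.96 CPM in TNBU. The SCFA libraries were all below the Ctrl and TN libraries. With TNF-α alone the log2 fold change was 0.14 (95% interval -0.11 to 0.39). Against TN it was 1.82-fold lower in PRTN (adjusted p = 5.69e-05), 2.26-fold lower in TNPR (adjusted p = 6.29e-06) and 1.69-fold lower in TNBU (adjusted p = 0.000182). In BUTN it was 1.49-fold lower (adjusted p = 0.00105), just under the fold threshold. The call in TNBU was lost without TNBU replicate 2, at a log2 fold change of -0.58, and with scaling by library size alone. GAREM2 (r = 0.98), ADGRA3 (0.98) and SQSTM1 (0.98), an autophagy receptor, were most like NOD1.

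DDX58 (RIG-I; ENSG00000107201, minus strand, 9:32455302-32526208) and IFIH1 (MDA5; ENSG00000115267, minus strand, 2:162267074-162318684) are cytosolic helicases that bind viral RNA and signal through MAVS. DDX58 was at 13.2 and 12.7 CPM in Ctrl, 17.5 and 15.1 CPM in TN, 12.4 and 13.4 CPM in PRTN, 14.1 and 14.6 CPM in BUTN, 9.83 and 9.53 CPM in TNPR and 10.7 and 9.19 CPM in TNBU. The TNPR and TNBU libraries were the lowest 4 of the 12, PRTN overlapped Ctrl, and BUTN lay between Ctrl and TN. The log2 fold change was 0.33 (SE 0.10, adjusted p = 0.109) with TNF-α alone, which was not called. Against TN, DDX58 was 1.68-fold lower in TNPR (adjusted p = 5.48e-05) and 1.64-fold lower in TNBU (adjusted p = 9.21e-05). In PRTN (log2 fold change -0.33, adjusted p = 0.0121) and BUTN (-0.18, adjusted p = 0.14) it was not called. With scaling by library size alone the values of TNPR and TNBU were -0.57 and -0.52 and were no longer called. NFE2L2 (r = 0.97), the regulator of antioxidant genes, KCTD3 (0.96) and SEC14L2 (0.95) were most like it.

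IFIH1 was at 8.62 and 7.03 CPM in Ctrl, 8.79 and 9.15 CPM in TN, 6.25 and 5.93 CPM in PRTN, 6.07 and 7.20 CPM in BUTN, 6.75 and 4.38 CPM in TNPR and 6.87 and 4.91 CPM in TNBU. All SCFA libraries were below both TN libraries, but BUTN overlapped Ctrl. With TNF-α alone the log2 fold change was 0.20 (95% interval -0.21 to 0.61). Against TN it was 1.64-fold lower in TNPR (adjusted p = 0.00814) and 1.55-fold lower in TNBU (adjusted p = 0.0165), and in PRTN (log2 fold change -0.56, adjusted p = 0.0252) and BUTN (-0.44, adjusted p = 0.0676) it was not called. These calls rested on single libraries. That in TNPR was lost without TNPR replicate 2 (log2 fold change -0.41, adjusted p = 0.0933), and that in TNBU without TNBU replicate 2 (adjusted p = 0.166) or TN replicate 2 (0.069). Both were lost with scaling by library size alone. SPRED2 (r = 0.96), ZNF317 (0.95) and ZNF239 (0.94) were most like IFIH1.

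Levels of different genes were compared per kilobase of exon, as group means. In Ctrl, CLEC4E stood at 7.95 ± 0.98 CPM per kb (SD, n = 2), above NOD1 (1.51 ± 0.02), IFIH1 (1.5 ± 0.22), DDX58 (1.25 ± 0.04), TLR2 (1.10 ± 0.07) and TLR6 (0.925 ± 0.029). NOD1 and IFIH1 differed by less than their spread, and TLR3 (0.301 ± 0.027) and TLR1 (0.054 ± 0.005) came last among those with counts. In TN the mean of CLEC4E was 18.2 ± 0.16 CPM per kb. In PRTN it was 0.306 ± 0.069, below DDX58 (1.25 ± 0.07), IFIH1 (1.17 ± 0.04), NOD1 (0.918 ± 0.027), TLR6 (0.605 ± 0.008) and TLR2 (0.589 ± 0.058). CLEC4E, with the highest level per kilobase in Ctrl and TN, was the sixth of the 8 counted receptors in PRTN.

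The next question was whether giving the SCFA after TNF-α differed from giving it before, at the same dose. The time between TNF-α and harvest differed along with the order, and the 2 cannot be told apart. Between TNPR and PRTN, 0 of all 10 receptors were called higher or lower, where 0.0534% and 0.107% of all tested genes were. Between TNBU and BUTN, 0 were called, against 0.0945% and 0.173%. At an unadjusted p under 0.05 and a fold over 1.5, 2 and 1 receptors passed. TLR1 passed in both comparisons, and the other with propionate was the sparse TLR4, which is not read as a change. edgeR and DESeq2 each called 0 in both comparisons. With scaling by library size alone, the calls of all genes between TNBU and BUTN went from 23 higher and 42 lower to 28 and 33. The fitted difference was below 0 for 7 of the 8 counted receptors in each, with CLEC4E the exception in both. The sizes that the data allowed differed between genes. For TLR6 the difference was -0.21 (95% interval -0.57 to 0.16) with propionate and -0.16 (-0.52 to 0.20) with butyrate, whereas for CLEC4E it was 0.95 (-0.01 to 1.91) and 0.00 (-0.95 to 0.96). TLR1 was lower after than before in both, by 0.83 (-1.53 to -0.13, adjusted p = 0.367) and 0.84 (-1.55 to -0.13, adjusted p = 0.266) on the log2 scale. DDX58 fell by 0.41 (-0.64 to -0.18, adjusted p = 0.175) with propionate and by 0.54 (-0.77 to -0.31, adjusted p = 0.0427) with butyrate, the latter a 1.45-fold difference that stayed under the fold threshold.

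**Figure D3:**
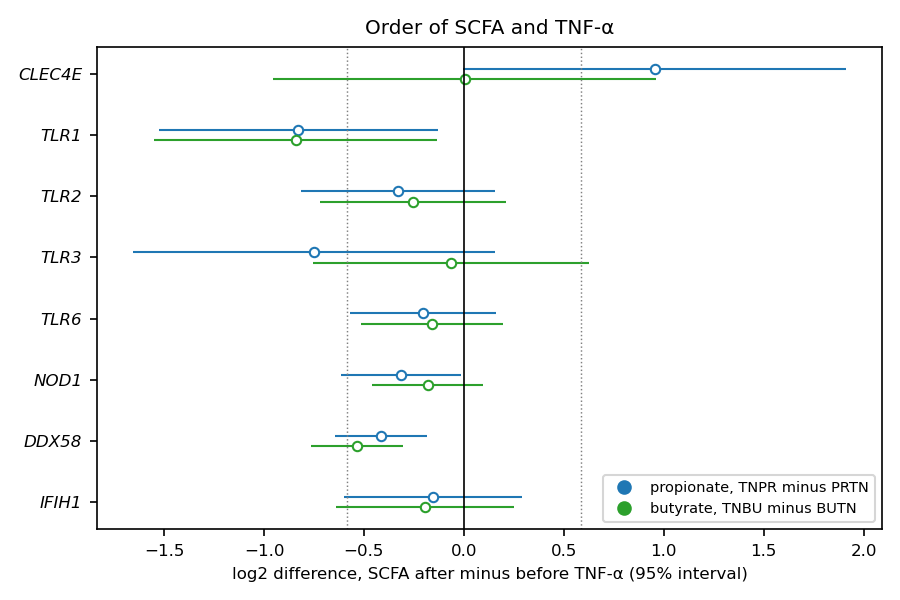
Fitted log2 difference of SCFA after minus SCFA before TNF-α (horizontal axis) for the 8 counted receptors, with 95% intervals, for propionate (blue) and butyrate (green); open points were not called and dotted lines mark a 1.5-fold change. All points are open, and only the intervals of TLR1 and DDX58 lie below 0 for both SCFAs.

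The genes around the receptors were described from 7 lists of pathway genes. None of the lists was independent of earlier results of these data. Over all tested genes, the share called higher than TN was 23.9%, 23.1%, 24.9% and 25.0% and the share called lower 16.7%, 14.8%, 16.9% and 16.5% in PRTN, BUTN, TNPR and TNBU, and each list is set against the range of these. Among 18 tested other pattern recognition receptors, 0 were called in either direction in TN against Ctrl by limma-voom (0 also at an unadjusted p under 0.05 with a fold over 1.5), and 8, 7, 5 and 6 were higher and 5, 4, 5 and 4 lower than TN in PRTN, BUTN, TNPR and TNBU. These are 27.8 to 44.4% higher and 22.2 to 27.8% lower, against 23.1% to 25.0% and 14.8% to 16.9% of all tested genes. Some of the higher ones were at or near 0 counts in Ctrl and TN and entered the fit only through the SCFA libraries, among them TLR5, TLR7, MRC1 and CLEC7A, so that a higher call was built into their being tested. IFI16, which binds DNA, went from 64.2 ± 4.0 CPM in TN to 17.2, 24.6, 17.6 and 22.0 CPM in the same order, and MB21D1 (cGAS), another DNA sensor, from 43.0 ± 3.0 CPM to 17.4, 19.0, 13.9 and 16.5 CPM, with all 8 comparisons called. CD36, a scavenger receptor that can act with TLR2 and TLR6, had 3 counts over both TN libraries, under the limit of 3 counts per library. It was at 2.73, 2.38, 1.85 and 1.86 CPM in the SCFA groups, all called. TLR5 and TLR7, named after their values were seen, had 0 and 1 counts over both TN libraries and 10 to 23 and 30 to 51 counts over the 2 libraries of each SCFA group.

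Among 8 tested co-receptors and trafficking genes, 2, 3, 3 and 3 were called higher and 3, 1, 2 and 1 lower than TN in PRTN, BUTN, TNPR and TNBU. With 8 genes, shares of 25.0 to 37.5% higher and 12.5 to 37.5% lower span those of all tested genes. LBP had 3 and 1 counts over the libraries of Ctrl and TN and 5 to 27 over those of each SCFA group. It also entered the fit only through the SCFA libraries, so that any higher call was built in. CD14, which hands lipopolysaccharide and lipopeptides to TLR4 and TLR2 and is also 1 of the macrophage markers, rose from 0.765 ± 0.187 CPM in TN to 2.76, 3.15, 2.38 and 2.88 CPM. CNPY3, a chaperone of Toll-like receptors, fell from 59.8 ± 4.7 CPM to 33.5 CPM in PRTN, 33.7 CPM in TNPR and 39.0 CPM in TNBU, and was at 40.2 CPM in BUTN, which was not called.

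Of 20 adaptors and kinases of the Toll-like receptors, 1 was called higher in each SCFA group and 5, 4, 4 and 4 lower than TN. The 5.0% higher was below the 23.1% to 25.0% of all tested genes, and the 20% to 25.0% lower was near their 14.8% to 16.9%. IRAK1, a kinase recruited by MYD88, was at 249 ± 15.5 CPM in TN and at 54.7, 60.5, 45.5 and 47.6 CPM in PRTN, BUTN, TNPR and TNBU (log2 fold changes -2.19, -2.04, -2.45 and -2.39, all called). IRAK2 was the only gene of the list that rose with TNF-α alone, from 32.4 ± 1.1 to 85.1 ± 2.4 CPM, and it stood at 31.2, 39.8, 19.7 and 19.5 CPM in the SCFA groups. It was also lower in TNBU than in BUTN (log2 difference -1.04, called).

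Of 17 genes of NOD and CLEC4E signalling, 2 rose with TNF-α alone (BIRC3 and BIRC2). Against TN, 5, 4, 2 and 3 were higher and 6, 6, 6 and 6 lower in PRTN, BUTN, TNPR and TNBU. These are 11.8 to 29.4% higher, around the share of all tested genes, and 35.3% lower, against 14.8% to 16.9% of them. SYK, a gene of this list, had 0 counts in Ctrl and TN. Summed over the libraries of a group, it had 12, 7, 2 and 4 counts in PRTN, BUTN, TNPR and TNBU. It entered the fit only through the SCFA libraries, so that any higher call was built into its being tested. RIPK2, the kinase of NOD1 and NOD2, fell from 149 ± 1.6 CPM in TN to 51.9, 64.7, 44 and 48.1 CPM, and MALT1, a protease downstream of CLEC4E, from 193 ± 5.7 to 91.7, 101, 85.7 and 88.2 CPM. BIRC3, a ubiquitin ligase of NOD and TNF signalling, went the other way, from 238 ± 3.1 CPM in Ctrl to 487 ± 24 CPM in TN and 1130, 1298, 685 and 794 CPM in the SCFA groups, called against TN in PRTN, BUTN and TNBU but not in TNPR (log2 fold change 0.50). It was lower after than before TNF-α with both SCFAs (log2 difference -0.72 with each, called). FCER1G, the adaptor chain that CLEC4E needs, is also 1 of the macrophage markers and was named after its values were seen. Summed over the libraries of a group, it had 7 counts in Ctrl and 3 with TNF-α alone, 23 (PRTN) and 15 (BUTN) with the SCFA first, and 7 (TNPR) and 2 (TNBU) with the SCFA last.

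Of 16 genes that signal for RNA and DNA sensors, 0 were called in TN against Ctrl by limma-voom (0 also at an unadjusted p under 0.05 with a fold over 1.5), and 1, 1, 1 and 2 were higher and 4, 2, 5 and 6 lower than TN in PRTN, BUTN, TNPR and TNBU. The share higher was 6.2 to 12.5%, and the share lower ran from 12.5% in BUTN, below the 14.8% of all tested genes there, to 37.5% in TNBU. MAVS, the mitochondrial adaptor of DDX58 and IFIH1, fell from 242 ± 10.1 CPM to 154, 152, 157 and 147 CPM (log2 fold changes -0.65, -0.68, -0.63 and -0.72, all called). Of 20 negative regulators, TNFAIP3 and TNIP1 rose with TNF-α alone, and 5, 6, 6 and 5 were higher and 4, 4, 4 and 4 lower than TN, 25.0 to 30.0% and 20% of the list, which is near the shares of all tested genes. IRAK3, a kinase-like inhibitor of Toll-like receptor signalling, fell from 239 ± 7.9 CPM to 58.9, 74.4, 47.0 and 54.2 CPM.

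Of 20 interferon targets, 0 were called in TN against Ctrl by limma-voom (1 at an unadjusted p under 0.05 with a fold over 1.5), and 5, 5, 5 and 6 were higher and 6, 6, 8 and 8 lower than TN. The 25.0 to 30.0% higher was near the share of all tested genes, and 30.0 to 40.0% were lower, against 14.8% to 16.9%. CXCL10 had 0 counts over both Ctrl libraries, 4 over both TN libraries and 12 to 37 over the libraries of each SCFA group. It entered the fit only through the SCFA libraries, so that any higher call was built into its being tested. IFIT3 fell from 22.8 ± 2.1 CPM to 2.56, 4.65, 2.64 and 2.16 CPM. IFI6 rose from 6.0 ± 0.65 to 39.4, 40.8, 39.3 and 40.9 CPM, and ISG15, a ubiquitin-like modifier, from 14.4 ± 2.3 to 44.2, 43.8, 37.8 and 41.6 CPM.

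**Figure D4:**
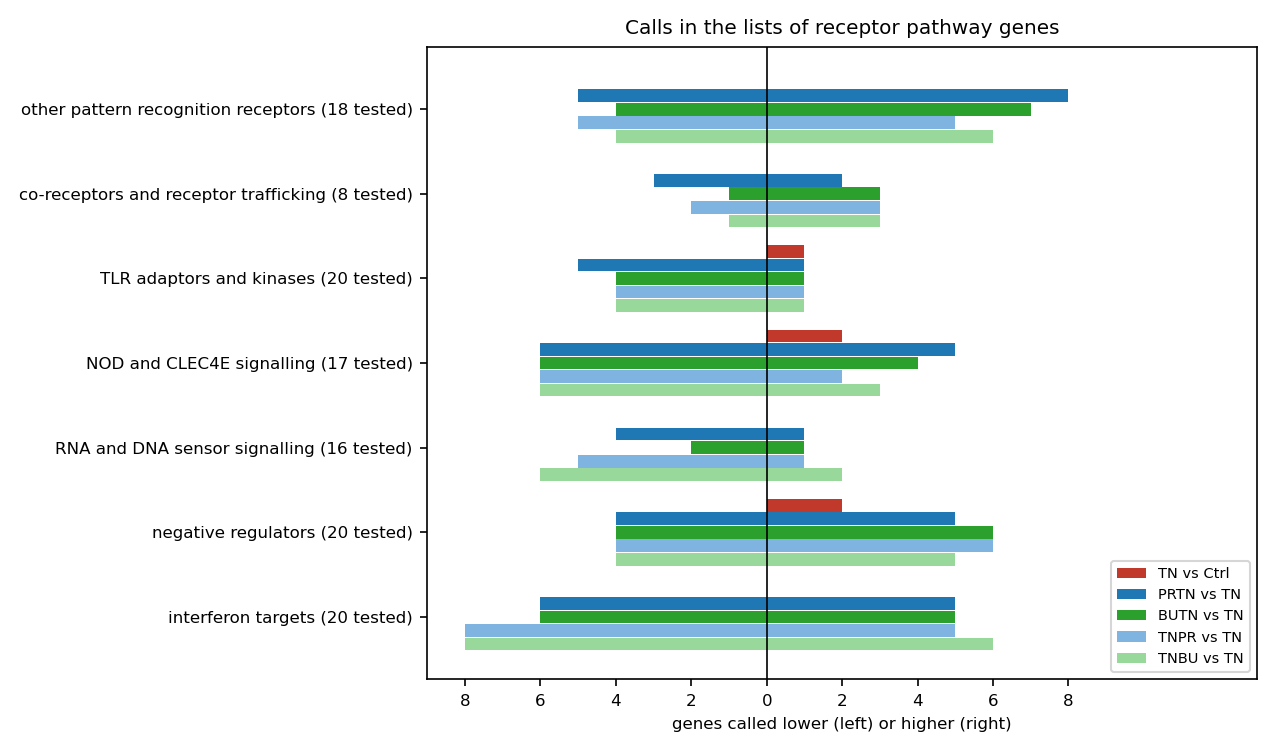
Number of genes called lower (bars to the left of 0) and higher (bars to the right) in 7 lists of receptor pathway genes, for TN against Ctrl and for each SCFA group against TN. Calls with TNF-α alone number at most 2 per list, and each list has calls in both directions in all 4 SCFA groups.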

How the data were processed

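RNA from HK2 cells in 6 groups of 2 was sequenced from TruSeq stranded mRNA libraries on an Illumina HiSeq instrument. Per the labels, reads were checked with FastQC 0.11.5, aligned with STAR 2.6.1a to GRCh38 and counted with RSEM, whose version and strand setting are not given in the sources used here. The study names GENCODE v26 for the counting and an Ensembl annotation for the alignment. The values deposited by the authors are expected counts per gene (19.3% of all values, zeros included, were not whole), with no normalization. The treatment field of the labels names other agents (thapsigargin and JQ1) than the library labels and the study's methods, which give TNF-α and SCFAs and were followed.

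Genes with a geometric mean of the expected count of at least 1, computed with 1 added to each count and then subtracted, were kept (24342 of 58278). Counts were scaled by TMM (edgeR 4.0.16) and fitted with limma-voom (limma 3.58.1, R 4.3.3), with a mean for each of the 6 groups over all 12 libraries and Benjamini-Hochberg adjustment over the tested genes. Calls needed both an adjusted p under 0.05 and a change of more than 1.5-fold. edgeR's quasi-likelihood test and DESeq2 1.42.0, both on counts rounded to whole numbers, were alternatives. So were other scalings and filters, leaving out each library, the replicate block and a fit on only the groups compared. TLR4 and NOD2, at or under 3 counts in most groups, were kept out of fold changes and of likeness. On data simulated for PRTN against TN (24342 genes, 200 of them changed), 85.5% of 2-fold and 98.2% of 4-fold changes were recovered among genes of 1 CPM or more. Below 1 CPM the shares were 0% and 13.6%, and there were 4 false calls over all genes. TLR1 lay in this lower range, as did TLR3 by its mean over all 12 libraries. Far more genes were called in the measured comparison (5824 higher and 4057 lower). The adjustment was therefore stricter in the simulation, and these shares do not carry over to the measured calls.

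All 10 receptors are given, and genes of the lists are named when called and among the 4 smallest adjusted p of their list in a comparison, or as exceptions where stated. Likeness is Pearson's r of log2 CPM over the 12 libraries, among genes of at least 1 CPM, with the 3 highest named. The receptors, lists and tests were chosen with earlier results of these data known. Propionate and butyrate differ in dose and were not tested against each other. NLRC3 stood in 2 lists, and CD14, MRC1 and FCER1G were also macrophage markers. Same-strand or antisense genes overlap TLR1, TLR4, TLR6, NOD1, NOD2 and DDX58 in GENCODE v44, used for positions and exon lengths.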

Additional observations from a re-analysis of the deposited data

Results flagged for a closer look

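DDX58 with butyrate differed between the orders of treatment by a log2 value of -0.54 (TNBU minus BUTN, SE 0.11, 95% interval -0.77 to -0.31, limma-voom adjusted p = 0.0427), since both TNBU libraries (10.7 and 9.19 CPM) were below both BUTN libraries (14.1 and 14.6 CPM). The adjusted p passed 0.05 while the 1.45-fold difference stayed under the 1.5-fold threshold. Over the alternatives the difference ran from -0.66 to -0.43 and the adjusted p from 0.0181 to 0.283. Without TNBU replicate 1 it was -0.66 (adjusted p = 0.0182) and would be called. With propionate the difference was -0.41 (adjusted p = 0.175). Whether the effect of order differed between butyrate and propionate was not tested, because their doses differed. The time between TNF-α and harvest differed along with the order and cannot be told apart from it.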

How the results depend on the processing

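The number of receptors called, here over all 10 with the sparse TLR4 and NOD2 included, stayed within 1.5 times in 101 of 110 counts under the 10 alternatives that keep all libraries. The exceptions, all written as totals over both directions, were as follows. With a fold over 2, the count was 4 for TNPR against TN (from 7), 4 for TNBU against TN (from 8), 5 for PRTN against Ctrl (from 8) and 4 for TNBU against Ctrl (from 7). With library size alone it was 5 for TNBU against TN, and with DESeq2 it was 5 for PRTN and 3 for TNBU against Ctrl. With an unadjusted p it was 2 for TNPR against PRTN and 1 for TNBU against BUTN (from 0 each). Leaving out each library in turn gave 5 to 8 for TNBU against TN (5 without TNBU replicate 2), 5 to 8 for PRTN against Ctrl (5 without Ctrl replicate 2), 4 to 7 for TNBU against Ctrl (4 without TNBU replicate 2) and 0 to 1 for TNBU against BUTN (1 without TNBU replicate 1).

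Directions turned in differences near 0 that were not called, given here as log2 values. DDX58 in PRTN against Ctrl, at -0.003, was 0.0154 with RLE size factors, 0.097 with library size alone, 0.0004 with edgeR and 0.018 with DESeq2, and -0.0609 to 0.0568 leaving out a library. TLR6 in TN against Ctrl was -0.0475 with library size alone and -0.0306 to 0.0485 leaving out a library. CLEC4E in TNBU against BUTN was -0.0014 with DESeq2 and -0.0509 to 0.0439 leaving out a library. Leaving out a library also crossed 0 for TNPR against PRTN in TLR2 (-0.759 to 0.0644) and IFIH1 (-0.4841 to 0.1478), and for TNBU against BUTN in TLR3 (-0.2536 to 0.1139), TLR6 (-0.43 to 0.1059), NOD1 (-0.3721 to 0.0007) and IFIH1 (-0.4477 to 0.0515). The cause was not tested.

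Same-numbered libraries did not deviate together (correlations from -0.0334 to 0.067 over 15 pairs of groups), so the numbers were not taken as pairs. With the replicate block, 5 receptors were called lower and 0 higher for TNPR against Ctrl, and no count left 1.5 times. At most 6 and 3 counts per library limit TLR4 and NOD2, and 2 libraries per group limit every interval.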
